A study of Mus musculus with 6 samples.

Results

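The smooth muscle contractile genes are 10 genes, Acta2, Tagln, Cnn1, Myh11, Myl9, Mylk, Actg2, Acta1, Cald1 and Tpm2, of 22310 genes in the deposited table. They were chosen by symbol and on their measured values, namely the difference between MIC and non-MIC in same-numbered pairs and the levels themselves. Their differences and levels are therefore a description, and where a fit over all genes called some of them, the count is given beside the share of all genes called and supports nothing. All 10 were found in the table and all had reads in each of the 6 libraries. RNA was sequenced from primary mammary tumor cells of MMTV-PyMT mice, in which the polyoma middle T antigen is driven by the mouse mammary tumor virus promoter, active in mammary epithelium. The mice were of the FVB/N background, about 12 to 18 weeks old and labelled WT apart from the transgene. Tumor cells of both groups were plated for 1 day in medium with serum, insulin and EGF before sorting. Metastasis-initiating cells (MICs) were sorted as CD24+CD90+ cells and non-MICs as CD24+CD90- cells, both after depletion of cells carrying the lineage markers CD45, CD31 or Ter119. There were 3 libraries per group, each numbered 1 to 3, and a pair below is the MIC and the non-MIC library with the same number. The labels do not say which tumor each number stands for.

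In smooth muscle, actin thin filaments slide past myosin thick filaments when the myosin regulatory light chain is phosphorylated by a calcium-dependent kinase. Transgelin, calponin, caldesmon and tropomyosin bind the thin filament and set its stability and its access to myosin. In the mammary gland the same proteins are made by the myoepithelial cells, which contract to eject milk, and they are also made by pericytes, vascular smooth muscle and activated fibroblasts.

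The actin members are close in sequence, so the first question was whether reads could be told apart between them. The coding sequences, compared without gaps from the stop codon backwards, matched that of Acta2 at 83.8% of bases for Actg2 and 85.4% for Acta1. The longest identical run with Acta2 was 29 bases for both, shorter than a 75-base read. For the nonmuscle actins Actb and Actg1 it was longer, at 47 and 56 bases, and also shorter than a read. The stretch of 75 bases in which the 3 genes differ least covers bases 916 to 990 of the Acta2 coding sequence. It is shown with capitals at bases that differ from Acta2. Actb and Actg1 did not enter this choice. The transcripts are those of GENCODE vM21.
Acta2: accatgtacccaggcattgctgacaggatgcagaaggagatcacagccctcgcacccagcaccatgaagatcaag
Actg2: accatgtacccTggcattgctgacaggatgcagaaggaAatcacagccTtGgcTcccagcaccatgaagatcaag
Acta1: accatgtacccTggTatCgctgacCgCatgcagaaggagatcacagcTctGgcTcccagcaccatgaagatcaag
Even there, Actg2 differed from Acta2 at 5 bases and Acta1 at 8. No exact 75-base window of the transcripts of 9 members was present in another gene's transcripts. For Acta1, 6 of 1521 windows (0.394%) were also found in Actb or the predicted gene Gm47692. Exact windows do not show how the aligner placed reads with mismatches.

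Serum response factor binds CArG boxes, which are 10 bases long with C at the first pair, G at the last pair and 6 bases of A or T between. RefSeq promoters (GRCm38.p6) were given for 7 of the 10 members, and both strands of the 250 bases before each start were searched. Of 32851 promoters in that table, 482 (1.47%) held a CArG box, and 2823 (8.59%) held one when a single core base was allowed to depart from A or T. Among the members, Myl9 and Acta1 held a full box, and Acta2 held only boxes with a departure. The windows of Cnn1, Mylk, Cald1 and Tpm2 held no match of either kind. Tagln, Myh11 and Actg2 were not among the promoters given and were not searched. The 3 promoters with matches are shown, 5′ to 3′ on the strand of the gene, with the boxes of either kind in capitals.
Acta2, chr19:34255374-34255623, minus strand: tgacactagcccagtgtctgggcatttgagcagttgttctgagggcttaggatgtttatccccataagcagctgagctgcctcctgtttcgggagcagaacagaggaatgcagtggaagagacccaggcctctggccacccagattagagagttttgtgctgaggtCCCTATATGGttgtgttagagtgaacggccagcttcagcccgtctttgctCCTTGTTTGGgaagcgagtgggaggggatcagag
Myl9, chr2:156775214-156775463, plus strand: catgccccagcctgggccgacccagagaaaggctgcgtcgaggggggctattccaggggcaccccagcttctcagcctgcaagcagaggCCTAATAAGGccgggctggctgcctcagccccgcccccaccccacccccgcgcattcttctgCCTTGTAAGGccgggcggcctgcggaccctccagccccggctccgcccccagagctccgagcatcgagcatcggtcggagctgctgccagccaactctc
Acta1, chr8:123894776-123895025, minus strand: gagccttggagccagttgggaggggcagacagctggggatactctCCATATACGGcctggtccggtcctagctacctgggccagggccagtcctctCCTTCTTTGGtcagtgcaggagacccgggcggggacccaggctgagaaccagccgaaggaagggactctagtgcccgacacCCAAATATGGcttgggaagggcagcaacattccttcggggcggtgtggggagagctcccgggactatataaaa
In Acta2 the boxes began 84 and 34 bases before the start. In Myl9 the full box began 161 bases before it and the departing box 99. In Acta1 the full box began 73 bases before it and the others 205 and 154. A match is a description of these letters and not a measured binding site.

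The deposited values are read counts scaled to the same total in each library, called scaled counts below. The recovered reads numbered 31467281 to 51759769 per library. The gene that encodes CD90, Thy1, had scaled counts of 1509, 301 and 755 in MIC 1, 2 and 3 and 16.9, 21.1 and 12.6 in non-MIC 1, 2 and 3. The libraries thus followed the sort on CD90. In bulk RNA, fewer cells of a type and less RNA per cell cannot be told apart, and this holds for every difference that follows.

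Acta2 encodes the alpha actin of vascular smooth muscle and of myoepithelial cells (chr19:34241090-34255590, GRCm38). Its scaled counts were 230574, 3765 and 9839 in MIC 1, 2 and 3, and 48582, 724 and 1581 in non-MIC 1, 2 and 3. Each MIC library was above the non-MIC library of its number, by 4.75-fold, 5.20-fold and 6.22-fold in pairs 1, 2 and 3. The groups overlapped, because non-MIC 1 stood above both MIC 2 and MIC 3. Actg2, the gamma actin of enteric smooth muscle (chr6:83512905-83536265), had 19139, 413 and 178 in the MIC libraries and 2466, 111 and 52.6 in the non-MIC libraries. Its difference was unequal between pairs, at 7.76-fold in pair 1 and 3.72-fold and 3.38-fold in pairs 2 and 3. Acta1, the alpha actin of skeletal muscle (chr8:123891769-123894751), had 17219, 1332 and 2339 in MIC and 6546, 512 and 613 in non-MIC. Its folds were 2.63, 2.60 and 3.82, and in pairs 1 and 2 they were smaller than those of both other actins.

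Tagln encodes transgelin, an actin-bundling protein of early smooth muscle (chr9:45929619-45936058). It had 128221, 2558 and 7138 scaled counts in MIC 1, 2 and 3, and 18221, 418 and 1198 in the non-MIC libraries. The fold was 7.04, 6.11 and 5.96 in pairs 1, 2 and 3, and its mean over pairs was the largest among the 10 members. Cnn1, calponin 1, which inhibits the myosin ATPase on actin (chr9:22099216-22109630), had 20258, 536 and 874 in MIC and 3582, 119 and 213 in non-MIC. The corresponding folds were 5.66, 4.49 and 4.10.

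Cald1 and Tpm2 behaved differently from these. Cald1, caldesmon, which blocks myosin from actin and is also made in a nonmuscle form (chr6:34598500-34775473), had 104194, 56657 and 38602 scaled counts in MIC, and 76040.0, 47039 and 29642 in non-MIC. MIC was higher in each pair, by only 1.37-fold, 1.20-fold and 1.30-fold. Tpm2, the beta tropomyosin (chr4:43514711-43523765), had 64224, 11135 and 21977 in MIC and 35429, 9849 and 12399 in non-MIC, with folds of 1.81, 1.13 and 1.77. Neither fell below 9849 scaled counts in any library, including those in which the other members were low.

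Among the thick filament genes, Myh11 encodes the smooth muscle myosin heavy chain (chr16:14194535-14291372). Its scaled counts were 19908, 310.3 and 377 in MIC and 3792, 64.4 and 43.5 in non-MIC. The 2 lowest values rest on 61 and 62 reads, and the folds were 5.25, 4.81 and 8.66. Myl9, the regulatory light chain (chr2:156775420-156781658), had 27700.5, 1731 and 1889 in MIC and 5827, 616 and 479.7 in non-MIC. Its folds of 4.75, 2.81 and 3.94 were smaller than those of Myh11 in every pair. Mylk, the kinase that phosphorylates the light chain (chr16:34745210-35002420), had 4516, 152 and 92.0 scaled counts in MIC and 1176, 53.9 and 47.0 in non-MIC. Its folds were 3.84, 2.83 and 1.96.

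**Figure D1:**
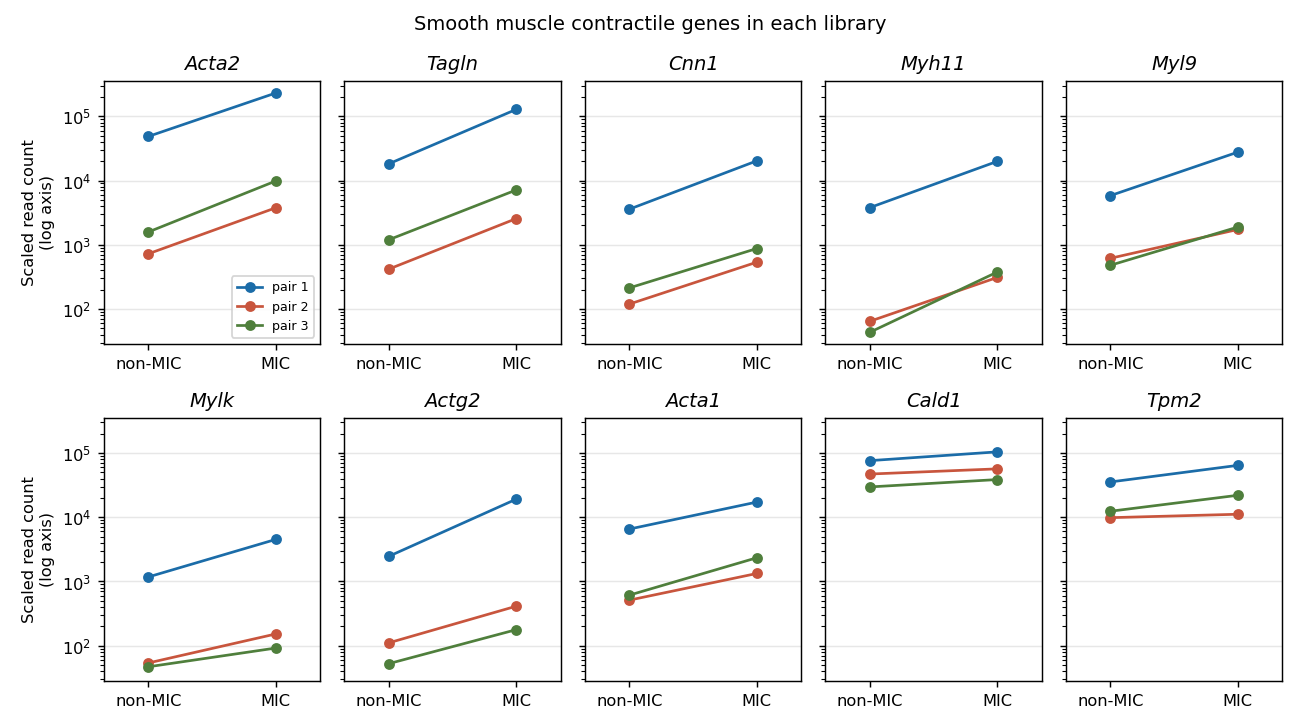
Scaled read counts (log axis) of the 10 genes in the non-MIC and MIC library of each number, with a line joining each pair. Every line rises from non-MIC to MIC, pair 1 stands above the others in every panel, and the lines of Cald1 and Tpm2 are the flattest.

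These genes varied more between numbers than between the sorted populations. Within MIC, the highest library exceeded the lowest by 61.2-fold for Acta2, 108-fold for Actg2 and 64.2-fold for Myh11, and by 12.9-fold for Acta1 and 2.70-fold for Cald1. Within non-MIC, the same ratio was 67.1-fold for Acta2, 46.9-fold for Actg2 and 87.2-fold for Myh11. The highest library was number 1 in both groups for all 10 members. Across members, the median SD of log2(scaled count + 1) was 2.89 within MIC and 2.62 within non-MIC (n = 3 each), against medians of 0.387 and 0.302 over the 11173 genes with a mean scaled count of at least 100. The SD of the 3 pair differences had a median of 0.35 over the members and 0.28 over those genes. The members therefore spread widely between numbers, and their pair differences spread far less.

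The numbers also ordered the members differently. For Acta2, Tagln, Cnn1, Acta1 and Tpm2, number 3 stood above number 2 in both groups, by 2.61-fold and 2.18-fold in MIC and non-MIC for Acta2 and by 2.79-fold and 2.86-fold for Tagln. For Actg2, Mylk and Cald1, number 3 stood below number 2 in both groups, at 0.431 and 0.474 of its value for Actg2. Myh11 and Myl9 were above number 2 in MIC and below it in non-MIC.

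On the log2 scale, the mean difference between MIC and non-MIC over the 3 pairs was 2.67 ± 0.13 (SD, n = 3 pairs) for Tagln, 2.58 ± 0.45 for Myh11, 2.42 ± 0.20 for Acta2, 2.23 ± 0.24 for Cnn1 and 2.19 ± 0.66 for Actg2. It was 1.90 ± 0.39 for Myl9, 1.57 ± 0.31 for Acta1 and 1.46 ± 0.49 for Mylk. The smallest were 0.62 ± 0.38 for Tpm2 and 0.37 ± 0.09 for Cald1. The median over the members was 2.05, and over all genes it was -0.04. All 10 members were higher in MIC in every pair, as were 2791 genes of the table (12.5%). A difference over 1 in every pair was found for 7 of the members and for 113 genes in all (0.506%). Mylk fell short only in pair 3, at 0.95. In none of the 10 members did the MIC and non-MIC groups stand apart. Over the whole table, 600 genes (2.69%) had every MIC library above every non-MIC library, so none among 10 members is near that share.

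**Figure D2:**
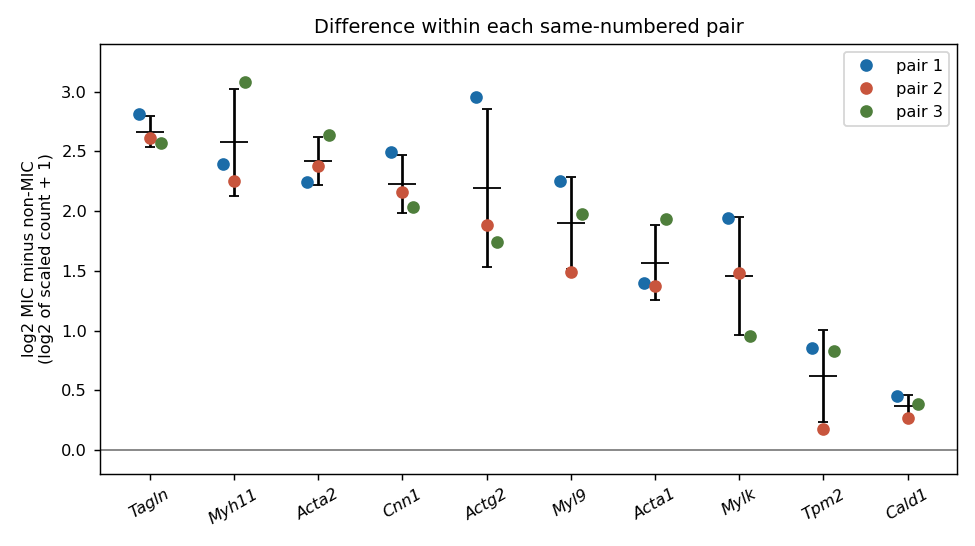
Log2 difference between MIC and non-MIC in each pair (points), with the mean and SD of the 3 pairs (bars), for the 10 genes in order of their mean. Means run from 2.67 for Tagln to 0.37 for Cald1, and Actg2 has the widest spread at an SD of 0.66.

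Without a block for the number, limma called 0.0% of the 22310 genes at an adjusted p of 0.05, which is 0 genes, and 322 genes had an unadjusted p under 0.05. By edgeR without a block the counts were 0 and 295, and by DESeq2 without a block 1 and 266. None of the 10 members was called in any of these. With the number as a block, which is used because same-numbered libraries departed together from their group means, limma called 0.121% of genes higher in MIC and 0.00896% lower. The 8 members other than Cald1 and Tpm2 were among the 27 higher genes. By edgeR with the block, 1.04% of genes were higher and 0.372% lower, and the same 8 members were among the higher. The members were chosen from this contrast, so nothing is read from these counts. They fell to 6 members without pair 1, which dropped Mylk and Actg2, to 7 without pair 2, which dropped Mylk, and to 0 members and 0 genes without pair 3.

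Taken as a share of all reads, the 10 genes made up 1.82%, 0.225% and 0.238% of MIC 1, 2 and 3, and 0.576%, 0.170% and 0.132% of non-MIC 1, 2 and 3. Without Cald1 and Tpm2 the shares were 1.34%, 0.0309% and 0.0649% in MIC and 0.258%, 0.00748% and 0.0121% in non-MIC. That is 5.18-fold, 4.12-fold and 5.38-fold more in MIC of pairs 1, 2 and 3. In every library except MIC 1, Cald1 and Tpm2 together held most of the members' reads.

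Levels were compared between genes as reads per kilobase of exon, scaled to library size (RPKM), using the combined exon length of each gene. In MIC 1, Acta2 had the 5th highest RPKM of all genes, and it stood 1013th in MIC 2 and 307th in MIC 3, at 49.0 and 128 RPKM. In non-MIC 1, 2 and 3 it stood at 632, 9.42 and 20.6, which ranked 37th, 4991st and 2504th. By mean log2 RPKM the order in MIC was Acta2, Tpm2, Tagln, Cald1, Myl9, Acta1, Cnn1, Actg2, Myh11, Mylk. In non-MIC it was Tpm2, Cald1, Acta2, Tagln, Myl9, Acta1, Cnn1, Actg2, Myh11, Mylk. From Myl9 down, the order was the same in both groups. The top of the order was not fixed within a group, since Acta2 was above Tpm2 in 1 of 3 MIC libraries and below it in the others. In MIC, the neighbours from Acta2 to Myl9, and Cnn1 and Actg2, differed by less than the SD of their log2 ratio. In non-MIC this held for Tpm2 and Cald1, Cald1 and Acta2, Tagln and Myl9, and Cnn1 and Actg2, and Myl9 and Acta1 differed by 0.32 ± 0.32. The combined exon lengths of Cald1 (12041 bases) and Mylk (11263 bases) include long alternative exons, which lowers their RPKM.

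The contractile isoforms have nonmuscle counterparts in the same gene families, so each member was set against its family on the RPKM scale. Of the RPKM of 6 actin genes, Acta2 made up 41.0%, 3.37% and 6.16% in MIC 1, 2 and 3, and 14.4%, 0.517% and 1.22% in non-MIC 1, 2 and 3. Actb, the main nonmuscle actin, made up 43.2%, 78.9% and 78.1% in MIC and 69.9%, 82.5% and 81.6% in non-MIC. The 2 genes were nearest to each other in MIC 1, and Actb was the higher one in every library. Tagln made up 72.4%, 13.9% and 13.9% of its RPKM with Tagln2 in MIC, and 28.4%, 1.76% and 3.09% in non-MIC. Myh11 made up 24.3%, 0.731% and 0.631% of 4 myosin heavy chain genes in MIC and 3.93%, 0.0960% and 0.0904% in non-MIC. Myh9, a nonmuscle heavy chain, held 64.2% to 85.5% of that family in all libraries. For Cnn1 among 3 calponin genes the shares were 21.2%, 1.64% and 2.41% in MIC and 5.598%, 0.326% and 0.691% in non-MIC. Myl9 held a larger part of its family than the other members did in most libraries, with 81.9%, 25.7% and 32.7% of the RPKM of 3 regulatory light chain genes in MIC and 54.1%, 15.7% and 11.8% in non-MIC. Tpm2 held 7.66% to 23.1% of 4 tropomyosin genes in all libraries, and its share was higher in MIC by 1.38-fold, 1.08-fold and 1.36-fold. All 8 members set against a family took a larger share of it in MIC than in non-MIC in every pair. Shared windows were searched for the members only, not among the counterparts that make up the rest of each family. In the light chain family, Myl12b had 0.879 to 2.56 RPKM and Myl12a 79.4 to 149. The effect of reads shared among counterparts on these shares was not tested.

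**Figure D3:**
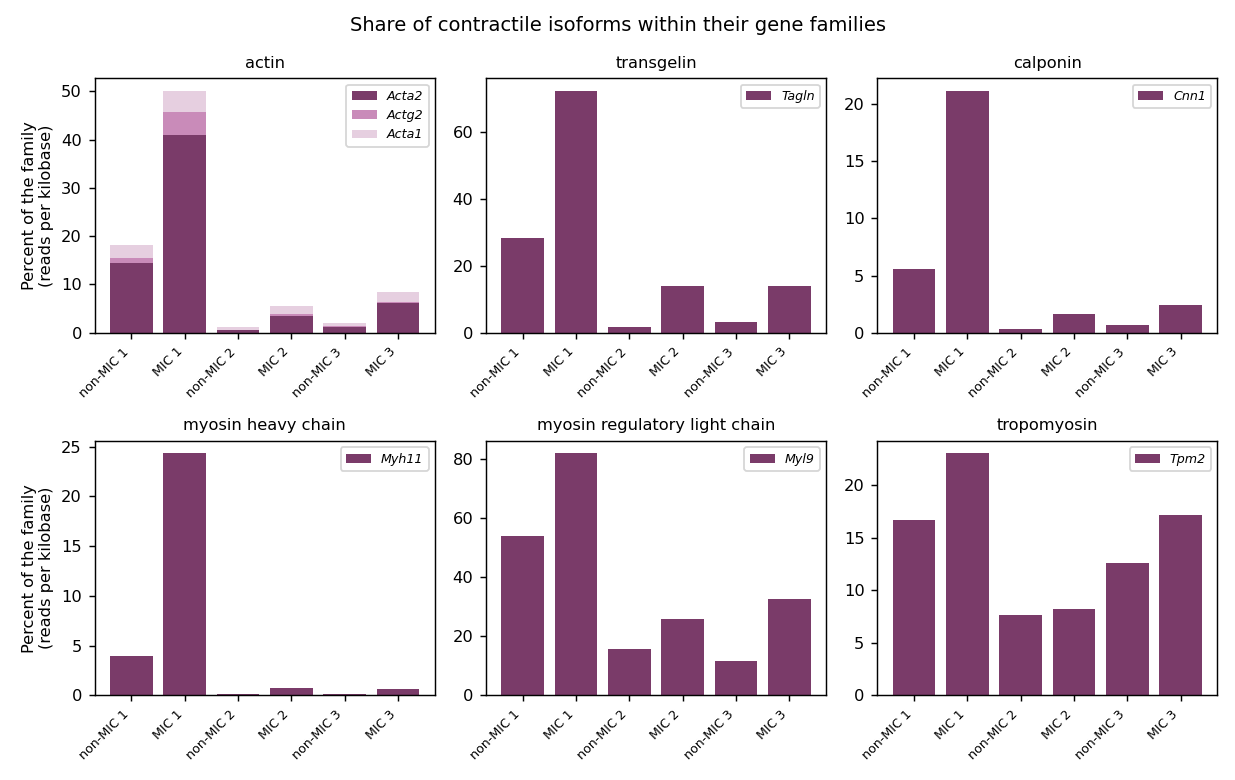
Percent of the family's RPKM held by the contractile isoforms in each library, in 6 gene families (axes start at 0 and differ between panels). Each MIC bar is taller than the non-MIC bar beside it, and pair 1 holds the tallest bars, with Tagln at 72.4% of the transgelins in MIC 1.

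The nonmuscle counterparts themselves gave no call higher in MIC. Of 13 such genes, limma with the block called 0 in either direction, and edgeR with the block called 1 lower, Myh14, a nonmuscle myosin heavy chain of epithelia. Actb had a mean difference of -0.03 ± 0.32 (limma with the block, adjusted p = 0.972), Myh9 of -0.29 ± 0.54 (adjusted p = 0.687) and Tpm4, a nonmuscle tropomyosin, of 0.26 ± 0.11 (adjusted p = 0.645). The median over the list was -0.08, beside 2.05 for the members and -0.04 for all genes.

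A minority of other structural genes of smooth muscle were called higher in MIC. Of 24 listed partners, limma with the block called 1 higher, Kcnmb1, the beta subunit of the smooth muscle calcium-activated potassium channel. Its scaled counts were 1126, 26.7 and 19.6 in MIC and 174, 4.23 and 2.81 in non-MIC, a mean difference of 2.51 ± 0.16 (adjusted p = 0.0189). In pairs 2 and 3 the non-MIC values rest on 4 reads each. By edgeR with the block, 6 partners were higher and 0 lower, and Lmod1, Fhl1, Nexn and Pgm5 were among the additional ones. Lmod1, leiomodin, which nucleates actin filaments in smooth muscle, had 3072, 142 and 112 in MIC and 822, 60.2 and 72.2 in non-MIC (edgeR with the block, adjusted p = 1.59e-06, and limma with the block, adjusted p = 0.149). The median over the 24 partners was 0.36. In every pair, 12 of the 24 were higher in MIC and 2 were lower, where 12.5% of all genes were higher. Des, desmin, the intermediate filament protein of muscle, had at most 9 reads in any library.

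Apart from the member Mylk, no gene listed for the switch that turns contraction on was called. Of 15 listed genes, which include those of the myosin phosphatase that reverses the light chain's phosphorylation, 0 were called by limma or by edgeR with the block. Among the most abundant, Calm2 had a mean difference of 0.35 ± 0.23 (limma with the block, adjusted p = 0.495) and Rock2 of 0.13 ± 0.17 (adjusted p = 0.794). The list's median was 0.07. The kinase Mylk is part of this switch but was counted among the members, where limma and edgeR with the block called it higher. Its mean difference of 1.46 was above only those of Tpm2 and Cald1 among the members.

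Among 18 regulators of smooth muscle genes, limma with the block called 1 higher, Tgfb1i1, also known as Hic-5, a focal adhesion protein and coactivator. It had 2573, 102 and 139 scaled counts in MIC and 729, 23.2 and 31.6 in non-MIC, a mean difference of 2.00 ± 0.16 (adjusted p = 0.00419). By edgeR with the block, 2 regulators were higher and 0 lower, Tgfb1i1 and Prrx1 (edgeR adjusted p = 0.00197 for Prrx1). Srf, serum response factor, whose CArG motif was searched for above, had 3674, 1827 and 1212 in MIC and 4774, 2626 and 1133 in non-MIC. Its difference was -0.27 ± 0.32 (limma with the block, adjusted p = 0.564), and its level was highest in number 1 in both groups. Its coactivators Mrtfa and Mrtfb differed by -0.25 ± 0.19 and -0.41 ± 0.56 (adjusted p = 0.561 and 0.459). Myocd, myocardin, the coactivator of differentiated smooth muscle, had at most 2 reads in any library. The median over the 18 regulators was -0.26, below that of all genes.

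Several cell types make these proteins, and their markers were read beside the members. Of 16 myoepithelial markers, limma with the block called 2 higher, Krt5, a basal keratin, and Dkk3, a secreted Dickkopf protein. Krt5 had 12705, 403 and 2554 in MIC and 1161, 97.2 and 1109.5 in non-MIC (mean difference 2.23 ± 1.14, adjusted p = 0.0121). Dkk3 had 2536, 54.5 and 162 in MIC and 388, 14.8 and 32.96 in non-MIC (2.26 ± 0.45, adjusted p = 0.0042). Both had their highest value in MIC 1, as the members did. By edgeR with the block, 5 of the 16 were higher and 0 lower. Krt14, another basal keratin, differed by -0.10 ± 0.72 (limma with the block, adjusted p = 0.892). The summed scaled counts of the 16 markers were 257148, 73462 and 139701 in MIC 1, 2 and 3, and 155614, 90909 and 107595 in non-MIC, so the sum was higher in MIC in pairs 1 and 3 and lower in pair 2. In every pair, 5 of the 16 were higher in MIC and 1 was lower. None of the 16 was at 0 in any library.

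Of 9 pericyte and vascular smooth muscle markers in the table, limma with the block called 0 and edgeR with the block called 2 higher, Cspg4, a pericyte proteoglycan, and Mcam, an adhesion molecule. Of the 9, 4 were higher in MIC in every pair and 0 lower in every pair, where 12.5% of all genes were higher in every pair. The list's median difference was 0.02, 0.17 and 1.23 in pairs 1, 2 and 3. Rgs5 and Kcnj8, 2 of the 9, had at most 3 reads in any library. The sum of the list was 13738, 3608 and 4217 in MIC 1, 2 and 3, and 6491, 2442 and 2891 in non-MIC. It was thus higher in MIC in every pair, by 2.12-fold, 1.48-fold and 1.46-fold, and most of it was Mcam, a gene also expressed outside pericytes. Of 10 fibroblast markers, limma with the block called 0 and edgeR with the block called 2 higher, Col1a2, a chain of type I collagen, and Dcn, decorin. Their sum was 2106, 618 and 2303 in MIC and 1215, 718 and 605 in non-MIC, which is 1.73-fold and 3.81-fold higher in MIC in pairs 1 and 3 and 0.861 of the non-MIC value in pair 2. The list's median difference was -0.28, 0.08 and 1.63 in pairs 1, 2 and 3, and 4 of the 10 were higher in MIC in every pair and 0 lower. The 8 members without Cald1 and Tpm2 summed to 467535, 10798 and 22725 in MIC and to 90193, 2619 and 4228 in non-MIC. The part of these cell types in the members' values was not tested.

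Of 19 luminal markers, limma with the block called 0 and edgeR with the block called 3 lower and 0 higher, namely Elf5, Kit and Wfdc18. Krt8 and Krt18, the luminal keratins, had 81339 to 323545 scaled counts across all 6 libraries. The sum of the list ran from 219690.4 to 634618 in MIC and from 282171 to 745976 in non-MIC, so luminal transcripts were abundant in both groups and in every number. Of 21 striated muscle genes, limma with the block called 0 and edgeR with the block called 1 lower, the fast troponin gene Tnni2. Actc1, cardiac actin, had 559, 0 and 0 in MIC and 134, 3.17 and 0.701 in non-MIC, whereas Acta1 had at least 485 reads in every library. Of 6 endothelial and 7 leukocyte markers 0 were called by either tool with the block, with sums of at most 199 and 2127.

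**Figure D4:**
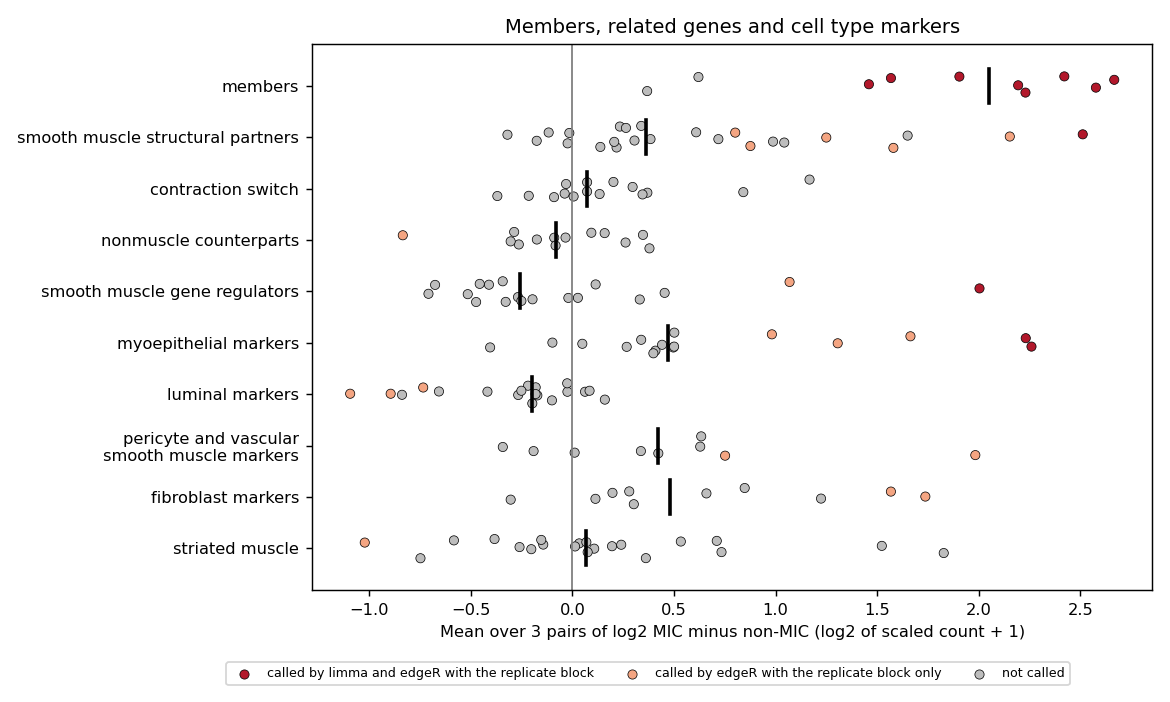
Mean over 3 pairs of the log2 difference between MIC and non-MIC for each gene (points) of the members and 9 related or marker lists, with the list's median (black bar) and the calls with the replicate block in color. The members' median is 2.05, and the medians of the other lists lie between -0.26 and 0.48.

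Genes with a profile like that of the members were sought among 11149 genes outside the members with a symbol and a mean scaled count of at least 100. Likeness was the root mean square distance between log2 values centred over the 6 libraries, which carry the same pairs. The 8 closest to the members' mean profile were Tgfb1i1 (0.276), Lmod1 (0.379), Rcn3 (0.457), Postn (0.516), Dkk3 (0.532), Jph2 (0.548), Serpinf1 (0.585) and Prrx1 (0.660). This distance also follows the spread between numbers, and Serpinf1 differed by only 0.03 in pair 2. Limma with the block called Tgfb1i1, Postn, Dkk3 and Jph2 higher. It did not call Serpinf1, Rcn3, Prrx1 or Lmod1 (adjusted p = 0.417, 0.286, 0.259 and 0.149). Of the members themselves, Myl9 lay closest to that mean, at 0.274, and Cald1 farthest, at 1.64. Postn, periostin, a secreted matrix protein, had 11525, 636 and 1077 in MIC and 1666, 115 and 226 in non-MIC. Closest to Acta2 alone were Dkk3 (0.515), Tgfb1i1 (0.554), Irx4 (0.672), Kcnmb1 (0.708) and Mrvi1 (0.734), while Tagln lay at 0.340, Cnn1 at 0.431 and Myh11 at 0.656. Mylk (0.924), Myl9 (1.03), Actg2 (1.04), Acta1 (1.06), Tpm2 (1.91) and Cald1 (2.39) were all farther from Acta2 than those 5 genes. Of the closest genes outside the members, all but Postn reached the mean of 100 only through number 1. Even Tgfb1i1, the closest, had 102 and 139 in MIC 2 and 3, and 23.2 and 31.6 in non-MIC 2 and 3. Rcn3, Jph2, Irx4, Kcnmb1 and Mrvi1 had at most 44.5 scaled counts in numbers 2 and 3, and Irx4 had 0 in non-MIC 2. The members also peaked in number 1, so the likeness of all these genes but Postn was partly set by that filter. Nothing is read from the list of closest genes.

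**Figure D5:**
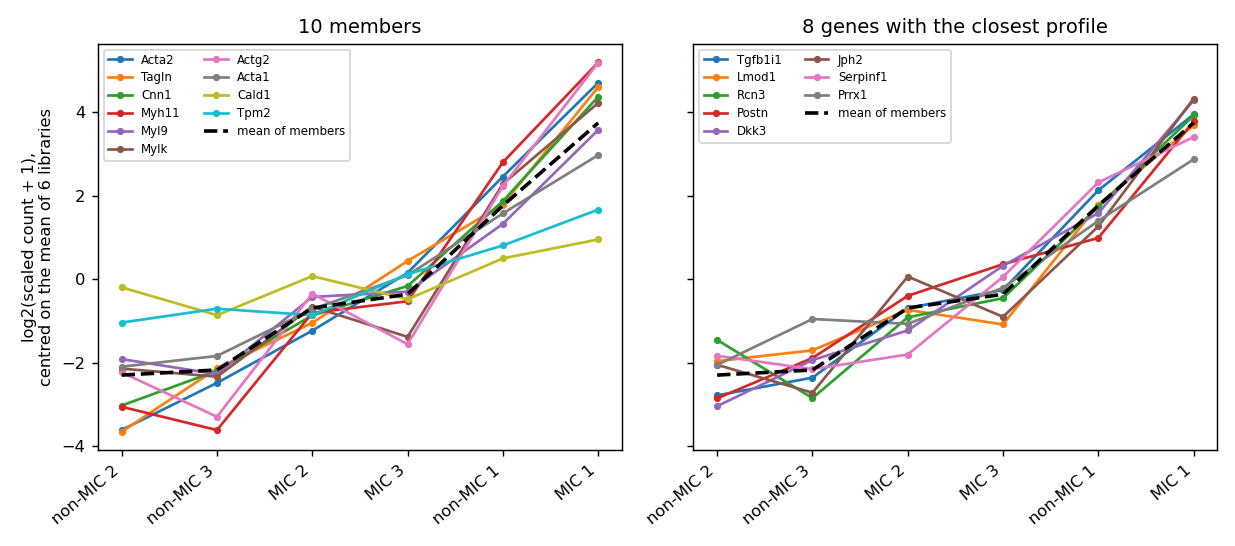
Log2(scaled count + 1), centred on the mean of the 6 libraries, for the 10 members (left) and the 8 genes with the closest profile (right), with the members' mean dashed. The libraries are placed in order of that mean, and Cald1 and Tpm2 are the flattest lines, while the 8 genes at right lie within a distance of 0.660.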

How the data were processed

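The authors made stranded mRNA libraries from sorted cells. Reads were counted per gene on GRCm38 (mm10), and the deposited signal holds counts that the authors divided by library size. The labels' processing notes name STAR and HTSeq, and the study's methods name Bowtie2 and samtools, so the aligner is not settled here, and no versions are given in the sources used here. Values were whole multiples of 1 read within 0.01 of a read for 99.985% to 100.0% of values. The recovered reads, 31467281 to 51759769 per library, were used for edgeR, DESeq2 and RPKM, and counting error is the only error that depth describes. All columns of the table were used.

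The main test was limma 3.58.1 (R 4.3.3) with a mean trend and no block, on values log2-transformed after adding 1. P-values were adjusted by Benjamini and Hochberg's method across 22310 genes, and the threshold was 0.05. The recovered reads were also tested by edgeR 4.0.16 (quasi-likelihood) and by DESeq2 1.42.0. All 6 libraries entered each fit. Both groups carry the numbers 1 to 3, and when each library was set against its group mean, same-numbered libraries correlated at 0.573, 0.668 and 0.746 across genes, all over 0.1, so values with the replicate block stand beside the others. Libraries of 1 group are taken as separate samples, and the study's legend speaks of independent experiments or tumors. Limma, edgeR and DESeq2 were run on simulated data with and without the block, and only the fits with the block had to pass a set limit. Other pseudocounts, filters, scalings, the fit without a trend and left-out libraries were not simulated.

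The members and all gene lists were chosen with earlier results of these data known, and the lists support nothing independently. Named genes are the 10 members, the sorting gate gene Thy1, Srf and its coactivators, and the closest profiles. Also named are the genes of each list called by limma with the block or otherwise its most abundant ones. Cd24a, the other sorting gate gene, is not reported here. Other genes, such as Krt14, Des, Actc1, Rgs5, Kcnj8 and those called by edgeR alone, were chosen after their values were seen. Some genes of the lists are not reported here by name. Symbols, positions and exon lengths came from GENCODE vM21 (GRCm38), transcripts likewise, and promoters from RefSeq (GRCm38.p6). Summaries used Python 3.11.15, numpy 2.4.6, pandas 2.3.3 and matplotlib 3.10.9. Alternatives were pseudocounts of 0.1 and 10, a minimum mean value of 10, quantile and TMM scaling, no trend, the block, each library left out, and each pair left out with the block.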

Additional observations from a re-analysis of the deposited data

How the results depend on the processing

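With the replicate block, limma called 29 genes in place of 0, 8 members in place of 0 and 3 genes of the related lists (structural partners, contraction switch, nonmuscle counterparts, regulators and sorting gate genes) in place of 0. The pairing decided these calls, and each was also moved by leaving out a pair: without pair 1 or pair 2 the block gave 11 and 59 genes, 6 and 7 members and 1 and 4 related genes, and without pair 3 it gave 0 of each. edgeR with the block called 315 genes, 8 members and 10 related genes, and DESeq2 with the block called 133, 8 and 7. DESeq2 without the block called 1 gene, Thy1. Pseudocounts, the filter on low values, quantile and TMM scaling and the fit without a trend left all 3 counts at 0 without the block, as did edgeR without it and each library left out.

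The members' median difference of 2.05 ranged from 1.77 to 2.29 over the settings that kept all libraries or whole pairs, and from 0.53 to 3.38 when a single library was left out without the block. In that last case the differences of Cald1, Mylk and Tpm2 fell to -0.02, -0.29 and -0.06 in 1 setting each, and those of the other 7 members stayed above 0. The members at 51 to 75 reads in a library have the widest counting error.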
